A study of Mus musculus with 27 samples.

Results

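The 9 genes described here encode enzymes that break down tyrosine and tryptophan: Tat, Hpd, Hgd, Fah and Gstz1 for tyrosine, and Tdo2, Kmo, Kynu and Haao for tryptophan. They were chosen by symbol from the 21823 genes of the deposited expression table, by a rule that uses no measured value but was set with earlier results of these data known, and all 9 were found, each in 1 row. The table covers liver lobular zones cut by laser microdissection from wild-type female C57BL/6 mice (C57BL/6N in the study's methods), young adults that were non-pregnant (NP) or at day 8 or 16 post coitum (dpc8 and dpc16). Zones 1, 2 and 3 were taken at each stage, with 3 libraries in each of the 9 groups and 27 libraries in all. No transgene, drug or deletion was used in any group, and each library is bulk RNA from 1 zone, not from sorted hepatocytes. The labels number the libraries of each group by experiment and do not say which animal each zone came from, so p-values measure the spread between these libraries and are too small if zones or sections shared an animal.

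The liver is the main site at which both amino acids are degraded. Tyrosine loses its amino group through Tat, is converted to homogentisate by Hpd, and is then opened, isomerized and split by Hgd, Gstz1 and Fah to fumarate and acetoacetate. Tryptophan is opened by Tdo2, the first and rate-limiting step of the kynurenine pathway, and Kmo, Kynu and Haao carry the product on towards the precursor of nicotinamide adenine dinucleotide (NAD). Tat and Tdo2 are classical liver genes induced by glucocorticoids, and inherited loss of Fah, Tat, Hpd or Hgd causes human disorders of tyrosine breakdown. The comparisons ask whether these enzymes differ between the portal and the central side of the lobule and whether they differ between stages of gestation, in which the study followed maternal liver growth and glucose handling.

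Values are FPKM (fragments mapped to a gene, scaled by transcript length and by the fragments mapped in the library), which adjust for transcript length, so that levels may be compared between genes. Read counts were not used here and the depth behind each value is unknown. FPKM summed to between 499866 and 988500 per library, with 10581 to 11997 genes at 1 FPKM or above, and Alb took 3.71 to 21% of the sum. Among the 21 libraries without the Y-linked signal described next, the 7 of dpc16 stood apart, with sums of 834568 to 988500 and 15.2 to 21% for Alb, against 567659 to 704327 and 3.71 to 12% in the 14 of NP and dpc8. The part of this in the stage comparisons was not tested beyond the other scalings named below. Zone labels were checked against markers: 8 periportal markers summed to 3585 to 8186 FPKM in zone 1 libraries and to 173 to 1801 FPKM in zone 3 libraries, and 8 pericentral markers to 243 to 465 FPKM in zone 1 and 6824 to 18290.0 FPKM in zone 3. Zone 1 was therefore the portal side and zone 3 the central side, also by the levels in these libraries.

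In 6 libraries, Uty, Ddx3y, Kdm5d and Eif2s3y, which are Y-linked, had a joint level of 7.92 to 23.2 FPKM, against at most 2.97 FPKM in the other 21, although all are labelled female. These were replicate 1 of NP zone 1, replicate 2 of NP zone 3, replicate 1 of dpc8 zone 1, replicate 2 of dpc8 zone 2, and replicate 3 of dpc16 zones 2 and 3. All 12 connective tissue and smooth muscle markers, among them Col1a1, Acta2 and Dcn, were measured, and their mean log2(FPKM + 1) was 5.51 to 6.93 in the 6 libraries and 2.51 to 4.92 in the 21. The 9 enzymes moved the other way: their summed FPKM was 1216 to 3845 in the 6 libraries and 2902 to 5951 in the 21, and their mean log2 value was the lowest of its group in 6 of 6. Mean log2 levels of the Kupffer cell and stellate cell markers were also the lowest of their group in 6 of 6, and those of endothelial and red cell markers in 5 of 6. Hepatocyte markers (5 of 6 in the table) averaged 10.7 to 11.8 on the log2 scale in the 6 libraries and 11.5 to 12.8 in the 21. In bulk tissue, fewer hepatocytes and less RNA of these genes per hepatocyte cannot be told apart, and the source of the Y-linked RNA was not tested. The part of the connective tissue in the results was not tested beyond the fits named below, and the limma tests are given with all 27 libraries and with the 21. Overlaps between groups, ratios and the genes most like a member are over all 27.

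**Figure D1:**
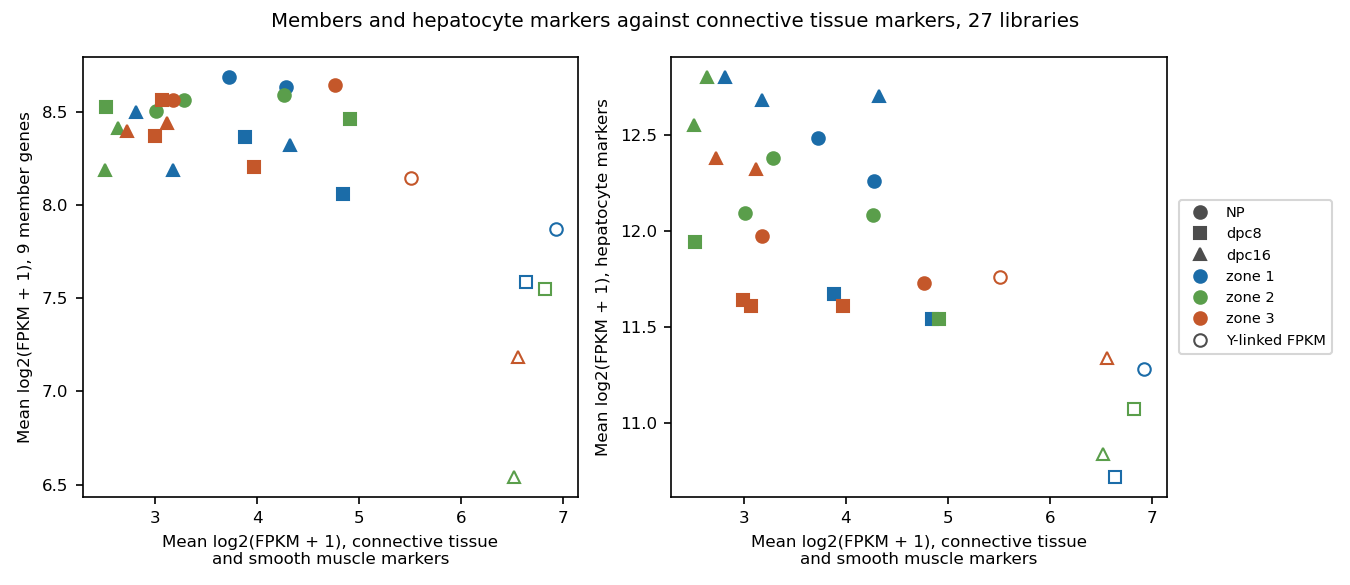
Each point is 1 of 27 libraries, with the mean log2(FPKM + 1) of 12 connective tissue and smooth muscle markers on the x axis and that of the 9 enzymes (left) or of the hepatocyte markers (right) on the y axis, in colour by zone and in shape by stage. The 6 open points, libraries with Y-linked FPKM, lie at connective tissue means of 5.51 to 6.93, and 5 of these lie below all 21 filled points for the enzymes.

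All 9 genes were abundant. Averaged over the 27 libraries, Hpd was the highest at 1417 FPKM, followed by Tat at 889.6 FPKM, and Kynu was the lowest at 61.9 FPKM. Among the 12952 genes tested (1 FPKM or above in at least 3 libraries), Hpd ranked at the 99.6% point and Kynu at the 89.7% point. Hgd (446 FPKM), Tdo2 (395 FPKM), Gstz1 (348 FPKM), Fah (300.3 FPKM), Haao (225 FPKM) and Kmo (121 FPKM) lay between them. The lowest value of 8 of the 9 genes was in 1 library, replicate 3 of dpc16 zone 2, and that of Kynu was in replicate 3 of dpc16 zone 3, both among the 6 with Y-linked FPKM. The span from the lowest to the highest library was 13.8-fold for Kynu, 9.44-fold for Tdo2 and 7.09-fold for Tat, and 3.73-fold for Fah, the narrowest. When the 9 groups were put in order of their means, neighbouring groups overlapped in 8 of 8 pairs for each gene except Tat, with 7 of 8.

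**Figure D2:**
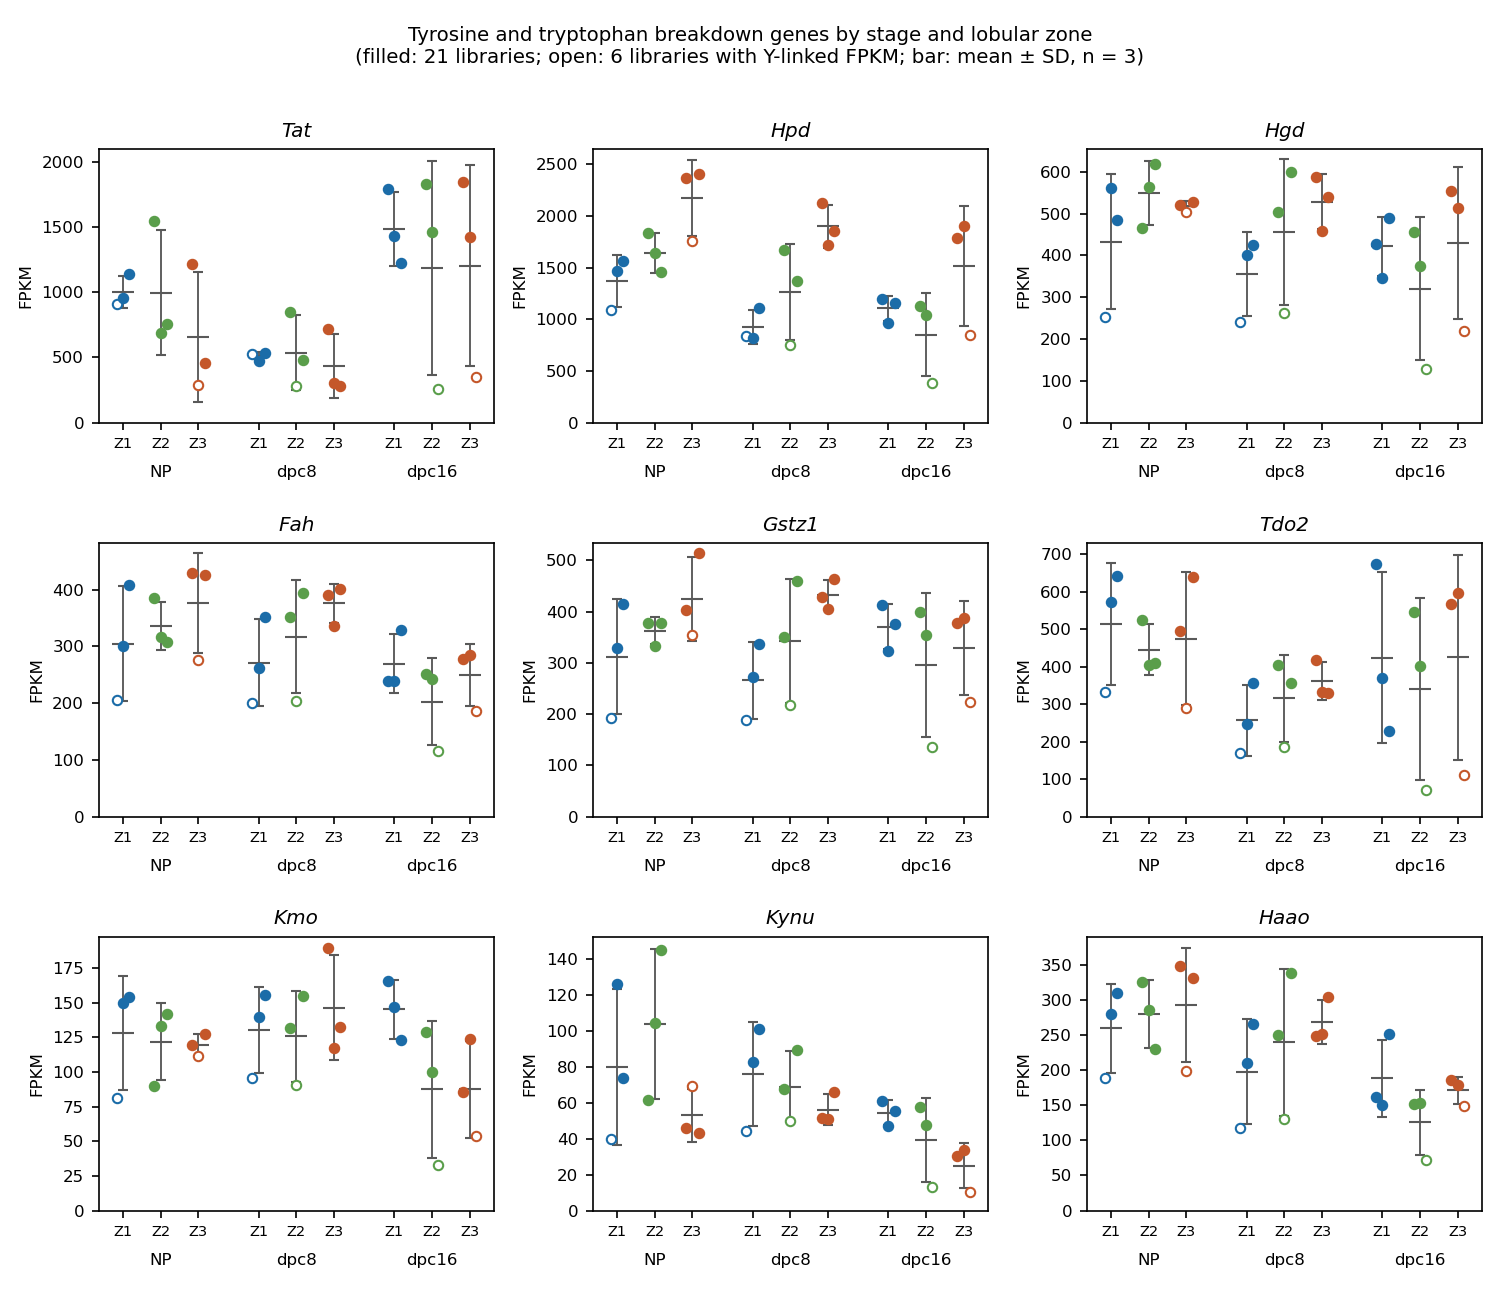
FPKM of each of the 9 enzymes in the 27 libraries, by stage (NP, dpc8, dpc16) and zone (Z1 to Z3). Points are libraries, open where Y-linked genes were present, and bars give the mean ± SD (n = 3). The mean of Hpd climbs from zone 1 to zone 3 at NP and dpc8. The mean of Tat is lowest at dpc8 in each zone, while its lowest single library is an open point at dpc16 (259.8 FPKM).

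Tat, the aminotransferase that starts tyrosine breakdown, lies at chr8:109990437-109999803 (mm10, plus strand), where the annotation lists no overlapping gene. The 250 bases before its start are shown because Tat had the largest difference between dpc8 and dpc16 on the mean of the 3 zones, with matches to CCAAT in capitals (ATTGG on the other strand). The window is from RefSeq, build GRCm38.p6, chr8:109990186-109990435, read on the plus strand:

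Tat: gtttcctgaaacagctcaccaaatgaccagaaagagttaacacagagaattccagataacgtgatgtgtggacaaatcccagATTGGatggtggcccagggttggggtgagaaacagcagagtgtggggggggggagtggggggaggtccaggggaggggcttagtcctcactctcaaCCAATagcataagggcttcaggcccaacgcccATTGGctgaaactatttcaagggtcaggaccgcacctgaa

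In zone 1, Tat measured 909, 959 and 1139 FPKM in the NP libraries, 525, 474 and 534 FPKM at dpc8, and 1794, 1432 and 1228 FPKM at dpc16 (means 1002 ± 121, 511 ± 32.5 and 1485 ± 287, SD, n = 3). In this zone the 3 stages did not overlap, with dpc8 lowest and dpc16 highest, and the libraries with Y-linked FPKM, replicate 1 at NP and at dpc8, lay near or within the span of the other 2. In zone 2, Tat measured 1548, 684 and 753 FPKM at NP, 847, 278 and 481 FPKM at dpc8, and 1832, 1461 and 259.8 FPKM at dpc16. In zone 3, the values were 1220.4, 286 and 459.7 FPKM at NP, 717, 304 and 281 FPKM at dpc8, and 1842, 1421 and 350.5 FPKM at dpc16. Both zones overlapped between stages, and the low dpc16 value in each was the library with Y-linked FPKM, the other 2 lying above every dpc8 value. Tat was also the highest in replicate 1 in 7 of 9 groups, which was more groups than for any other of the 9 genes.

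Hpd, the dioxygenase that makes homogentisate, lies at chr5:123171807-123182727 (mm10, minus strand), where Psmd9 overlaps it on the opposite strand and Gm26745, a noncoding gene, on the same strand. Whether reads were counted by strand is not given in the sources used here. Hpd was the gene called between zones 1 and 3 in the most fits, and the 250 bases before its RefSeq start (RefSeq, GRCm38.p6, chr5:123182724-123182973, read on the minus strand) held none of the motifs searched:

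Hpd: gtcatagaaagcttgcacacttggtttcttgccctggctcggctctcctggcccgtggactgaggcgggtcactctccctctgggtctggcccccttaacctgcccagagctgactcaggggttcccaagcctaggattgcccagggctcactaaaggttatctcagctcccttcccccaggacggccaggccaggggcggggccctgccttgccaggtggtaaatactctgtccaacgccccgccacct

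In NP liver, Hpd measured 1090.01, 1472 and 1563 FPKM in zone 1, 1835, 1639.6 and 1454 FPKM in zone 2, and 2368, 1755 and 2406 FPKM in zone 3. At dpc8, the values were 839, 814 and 1111 FPKM in zone 1, 1671, 751 and 1373 FPKM in zone 2, and 2124, 1717 and 1857 FPKM in zone 3. Zone 3 was above zone 1 in every library at both stages, and at dpc8 also above zone 2. At dpc16, Hpd measured 1197, 966 and 1156 FPKM in zone 1, 1126, 1044 and 387 FPKM in zone 2, and 1786, 1907 and 849 FPKM in zone 3. Here zones 1 and 3 overlapped, through the zone 3 library with Y-linked FPKM, and the other 2 zone 3 libraries lay above all of zone 1.

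Hgd, the dioxygenase that opens the ring of homogentisate, lies at chr16:37580153-37632020 (mm10, plus strand), with the antisense gene Gm46559 across it. It ranged from 252 to 619 FPKM at NP (median 521, n = 9), from 242 to 599 FPKM at dpc8 (median 458) and from 129 to 555 FPKM at dpc16 (median 428). With the zones pooled the stages overlapped almost wholly, and the lowest library of each stage was one with Y-linked FPKM. In zone 2 alone, the dpc16 values (457, 375 and 129 FPKM) lay below the NP values (466, 564 and 619 FPKM). Gstz1, the isomerase of the next step, lies at chr12:87147165-87164723 (mm10, plus strand), overlapped on the opposite strand by Pomt2 and Gm6566. It ranged from 192 to 515 FPKM at NP (median 377), from 188 to 463 FPKM at dpc8 (median 350.2) and from 135 to 412 FPKM at dpc16 (median 376). By these stage medians it was the least moved of the 5 tyrosine genes, though not in every fit of a single zone. Fah, the hydrolase that ends the pathway, lies at chr7:84585159-84606722 (mm10, minus strand) and is overlapped by no annotated gene. In zone 2 it measured 385, 317 and 307 FPKM at NP, 352, 204 and 394 FPKM at dpc8, and 251, 242 and 115 FPKM at dpc16. In zone 3 the values were 429, 275 and 426 FPKM at NP, 390.1, 337 and 401 FPKM at dpc8, and 277, 285 and 187 FPKM at dpc16. The 3 dpc16 values were below every NP value in zone 2 and below every dpc8 value in zone 3.

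Tdo2, the dioxygenase that commits tryptophan to the kynurenine pathway, lies at chr3:81957090-81976202 (mm10, minus strand), with no overlapping gene. The 250 bases before its RefSeq start (GRCm38.p6, chr3:81975729-81975978, read on the minus strand) are shown because Tdo2 and Tat share their known response to glucocorticoids, with a match to TATAAA and one to CCAAT (as ATTGG) in capitals. The RefSeq start lies downstream of the start of the gene as annotated above, so that this window is inside the annotated gene:

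Tdo2: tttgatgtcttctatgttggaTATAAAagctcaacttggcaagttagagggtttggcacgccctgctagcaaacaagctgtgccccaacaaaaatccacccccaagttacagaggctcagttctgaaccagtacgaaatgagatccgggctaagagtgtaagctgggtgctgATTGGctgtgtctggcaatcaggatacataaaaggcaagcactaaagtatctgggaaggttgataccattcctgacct

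In zone 1, Tdo2 measured 331, 571 and 641 FPKM at NP, 168, 247 and 357 FPKM at dpc8, and 675, 369 and 229 FPKM at dpc16. In zone 2, it measured 523, 404 and 409 FPKM at NP, 406, 185 and 357 FPKM at dpc8, and 546, 402 and 71.5 FPKM at dpc16. In zone 3, the values were 495, 289 and 640.03 FPKM at NP, 419, 334 and 329 FPKM at dpc8, and 568, 598 and 110.4 FPKM at dpc16. Every stage overlapped every other in each zone, and the dpc16 libraries spread the most, by 9.44-fold over all 9.

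Kmo, the monooxygenase that makes hydroxykynurenine, lies at chr1:175620381-175662116 (mm10, plus strand), overlapped on the opposite strand by Fh1. It ranged from 80.9 to 154 FPKM at NP (median 127, n = 9), from 90.3 to 189 FPKM at dpc8 (median 133) and from 32.8 to 165 FPKM at dpc16 (median 123). These ranges overlapped at every stage. At dpc16 Kmo measured 165, 147 and 123 FPKM in zone 1, 129, 100.2 and 32.8 FPKM in zone 2 and 85.3, 124 and 53.7 FPKM in zone 3, with the highest 2 values in zone 1.

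Kynu, the hydrolase that yields hydroxyanthranilate, lies at chr2:43555329-43682715 (mm10, plus strand), with no overlapping gene. At NP it measured 39.7, 126 and 73.8 FPKM in zone 1, 61.8, 104 and 145 FPKM in zone 2, and 46.1, 69.6 and 43.2 FPKM in zone 3. At dpc8 the values were 44.1, 82.7 and 101 FPKM in zone 1, 67.6, 50.1 and 89.6 FPKM in zone 2, and 51.7, 50.8 and 66.1 FPKM in zone 3. NP and dpc8 overlapped in each zone. At dpc16, Kynu measured 61.3, 47.3 and 55.2 FPKM in zone 1, 57.6, 47.5 and 13.2 FPKM in zone 2, and 30.4, 33.9 and 10.5 FPKM in zone 3. The 3 dpc16 values were below every NP value in zones 2 and 3 and, in zone 3, also below every dpc8 value.

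Haao, the dioxygenase that makes the direct precursor of quinolinate, lies at chr17:83831156-83847963 (mm10, minus strand), with no overlapping gene. It was the gene called lower at dpc16 in the most fits below, and the 250 bases before its RefSeq start (GRCm38.p6, chr17:83846791-83847040, read on the minus strand) held none of the motifs searched. This window too is inside the gene as annotated above, whose start lies further upstream:

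Haao: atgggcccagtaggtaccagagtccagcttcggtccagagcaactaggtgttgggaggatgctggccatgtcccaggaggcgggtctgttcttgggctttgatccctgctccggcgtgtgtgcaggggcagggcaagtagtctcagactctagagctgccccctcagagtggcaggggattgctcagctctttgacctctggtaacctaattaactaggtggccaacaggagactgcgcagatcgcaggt

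In zone 1, Haao measured 189, 280.4 and 310.3 FPKM at NP, 117, 210.5 and 266 FPKM at dpc8, and 162, 151 and 252 FPKM at dpc16. In zone 2, it measured 326, 286 and 229.8 FPKM at NP, 250.3, 130.1 and 339 FPKM at dpc8, and 152, 153 and 72.5 FPKM at dpc16. In zone 3, the values were 348, 199.5 and 332 FPKM at NP, 249, 252 and 304 FPKM at dpc8, and 186, 179 and 149 FPKM at dpc16. In zones 2 and 3 the dpc16 values lay below all NP values, in zone 3 they also lay below all dpc8 values, and in zone 1 the stages overlapped.

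Zone 1 was compared with zone 3 to ask which enzymes differ between the portal and the central side. With all 27 libraries, limma on log2(FPKM + 1) called 0 of the 9 genes at an adjusted p under 0.05 at NP, where 1.34% of the 12952 genes tested were called, at dpc8 (1.61%) and at dpc16 (1.55%). At an unadjusted p under 0.05, 0, 1 and 1 of the 9 passed, beside 8.02%, 12.2% and 7.86% of all genes. Hpd was lower in zone 1 by the values at NP (log2 difference -0.67, SE 0.37), dpc8 (-1.05, SE 0.37) and dpc16 (-0.37, SE 0.37), with limma adjusted p of 0.738, 0.204 and 0.943. The zones did not overlap for Hpd at NP, as for 6.05% of all genes with zone 1 lower, nor for Hpd, Hgd and Gstz1 at dpc8, as for 10.5% of all genes. At dpc16 only Kynu did not overlap, with zone 1 higher (8.36% of all genes), by 1.25 (SE 0.50, limma adjusted p = 0.429).

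Without the 6 libraries with Y-linked FPKM, the spread narrowed and Hpd passed the test at 2 stages. Limma then called Hpd lower in zone 1 at dpc8 (log2 difference -0.99, SE 0.16, adjusted p = 0.00164), beside 2.76% of all genes (1.27% lower), and at dpc16 (-0.74, SE 0.16, adjusted p = 0.015), beside 2.71% (1.26% lower). At NP the value was -0.65 (SE 0.18, adjusted p = 0.0805, and 0.0493 with the replicate block), and 0 of the 9 genes were called by limma, beside 1.81% of all genes, with 2 (9.94% of all genes) at an unadjusted p under 0.05. Kynu pointed the other way, with 1.10 at NP, 0.70 at dpc8 and 0.74 at dpc16, and limma adjusted p of 0.127, 0.289 and 0.302. The remaining 7 genes lay between -0.60 and 0.49 at the 3 stages, none past the threshold. Groups with a library left out had 2 libraries in this fit.

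**Figure D3:**
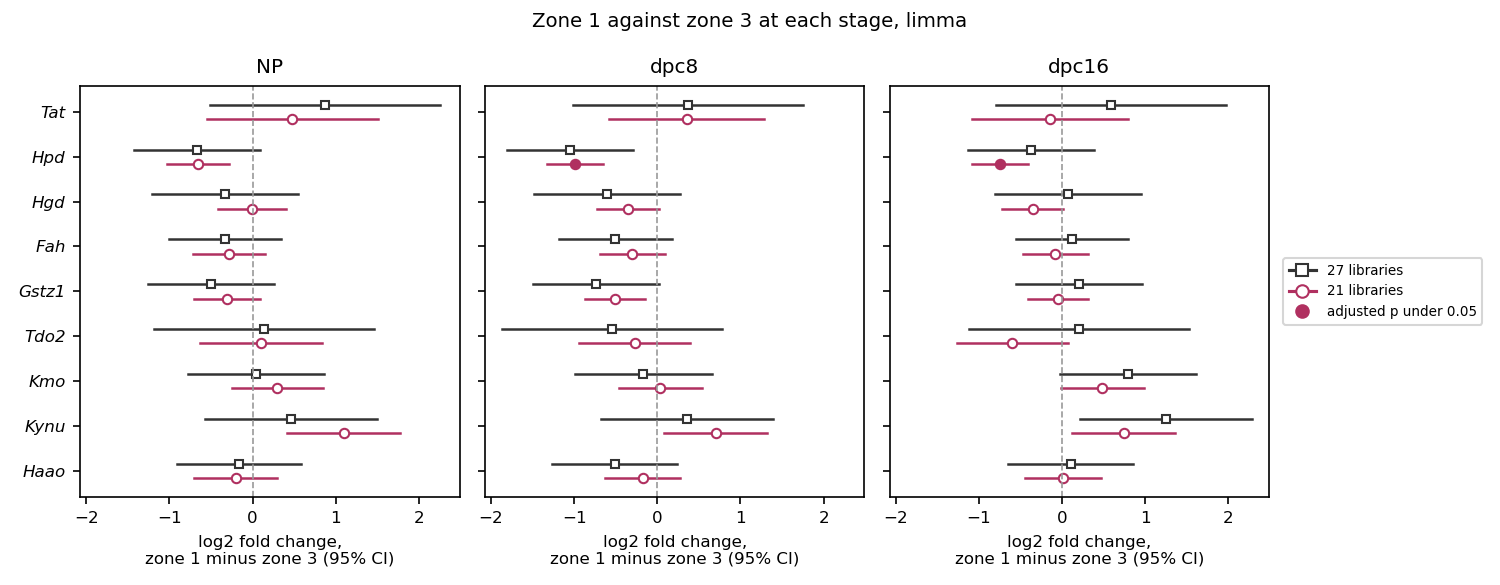
Log2 difference, zone 1 minus zone 3, of each of the 9 enzymes at NP, dpc8 and dpc16, with its 95% confidence interval from limma, for all 27 libraries (squares) and for the 21 without Y-linked FPKM (circles, filled at an adjusted p under 0.05). Hpd lies to the left of 0 in all 6 fits and is filled at dpc8 and dpc16, and Kynu lies to the right of 0 in all 6.

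Zone 2 was compared with each of the others. Between zones 1 and 2, limma called 0 of the 9 genes at NP, dpc8 and dpc16 (0.154%, 0.124% and 0.139% of all genes called), and at an unadjusted p under 0.05 there were 0, 0 and 1 (5.34%, 3.4% and 5.13% of all genes). The 1 gene was Kmo at dpc16, with a log2 difference of 0.93 (SE 0.39, limma adjusted p = 0.871). It was 0.34 (SE 0.24) with the 21 libraries. Between zones 2 and 3, limma called 0 of the 9 at the 3 stages (0.401%, 0.347% and 0.517% of all genes called), and 0, 0 and 1 passed at an unadjusted p under 0.05 (7.02%, 4.32% and 4.14%). At dpc8 Hpd did not overlap, lower in zone 2 as were 7.3% of all genes. The 1 gene at an unadjusted p under 0.05 was Hpd at dpc16, lower in zone 2 by the fitted value of -0.89 (SE 0.37, limma adjusted p = 0.958). With the 21 libraries, limma called 0 of the 9 between zones 1 and 2 at the 3 stages (0.224%, 0.232% and 0.317% of all genes), and 0, 3 and 0 passed at an unadjusted p under 0.05 (6.7%, 5.5% and 5.72%). Between zones 2 and 3 it called 0 as well (0.842%, 0.494% and 0.749%), and 2, 0 and 2 passed at an unadjusted p under 0.05 (11.7%, 5.78% and 6.42%). Hpd at dpc16 was among these (-0.77, SE 0.18, limma adjusted p = 0.0564), and with the replicate block it was called (-0.77, SE 0.15, limma adjusted p = 0.0145).

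From NP to dpc8, limma called 0 of the 9 genes in zone 1 (0.0309% of all genes called), zone 2 (0.00772%) and zone 3 (0.0154%), and 0 had an unadjusted p under 0.05 in each zone (3.13%, 5.06% and 2.74% of all genes). Few genes of any kind were called, 1 to 4 per zone. Tat in zone 1 was the only one of the 9 without overlap, lower at dpc8 by the fitted value of -0.97 (SE 0.67, limma adjusted p = 1), as were 2.92% of all genes. Tdo2 in zone 1 was at -1.01 (SE 0.64, limma adjusted p = 1) with overlap. Without the 6 libraries limma again called 0 of the 9 in each zone (0.0695%, 0.0386% and 0.0695% of all genes), and 3, 0 and 0 passed at an unadjusted p under 0.05 (4.71%, 6.66% and 4.66%). The 3 in zone 1 were Tat (-1.05), Hpd (-0.67) and Tdo2 (-1.03).

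From NP to dpc16, the dpc16 values were mostly lower in zone 2. With 27 libraries limma called 0 of the 9 in zone 1 (1.37% of all genes called), zone 2 (2.66%) and zone 3 (1.32%), while 0, 5 and 1 had an unadjusted p under 0.05 (11%, 16.6% and 11.5% of all genes). In zone 2 the stages did not overlap for 5 genes, all lower at dpc16, where 9.59% of all genes did so: Kynu (log2 difference -1.53, SE 0.50), Haao (-1.21, SE 0.36), Hpd (-1.09, SE 0.37), Hgd (-0.95, SE 0.42) and Fah (-0.80, SE 0.33). Their limma adjusted p ran from 0.0766 for Haao to 0.255 for Hgd. The median of the 9 was -0.82 in zone 2, beside 0.04 over all genes, and -0.52 beside 0.02 in zone 3, and with the 21 libraries it was -0.40 beside -0.05 and -0.26 beside -0.03. The connective tissue markers of zone 2 summed to 532 to 6020.0 FPKM at dpc16 against 638 to 886 FPKM at NP. In zone 3, Kynu (-1.18, SE 0.50, limma adjusted p = 0.337) and Haao (-0.74, SE 0.36, limma adjusted p = 0.453) did not overlap, lower at dpc16 like 8.87% of all genes. In zone 1 Tat alone did not overlap, higher at dpc16 by 0.56 (SE 0.67, limma adjusted p = 0.816) like 9.42% of all genes, and under quantile normalization its sign turned to -0.03.

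Without the 6 libraries, 2 genes fell from NP to dpc16 in zone 2 and 1 in zone 3. In zone 2, where 4.45% of all genes were called (1.89% lower), limma called Haao at -0.86 (SE 0.21, adjusted p = 0.0292) and Hpd at -0.59 (SE 0.16, adjusted p = 0.0443). In zone 3, beside 3.61% of all genes (1.6% lower), it called Haao at -0.90 (SE 0.23, adjusted p = 0.0448), a call lost with the replicate block (limma adjusted p = 0.0519) and under upper-quartile scaling (0.0761). The call of Hpd in zone 2 was kept with the block (limma adjusted p = 0.0461) and lost under upper-quartile scaling (0.0636). Quantile normalization called Hpd in all 3 zones, at -0.84 (limma adjusted p = 0.00765), -1.07 (0.000787) and -0.77 (0.0256). In zone 1 limma called 0 of the 9, beside 2.92% of all genes, with 4 (14.2% of all genes) at an unadjusted p under 0.05, and Haao stood at -0.68 (SE 0.21, adjusted p = 0.112). Hgd stood at -0.40 (SE 0.17, adjusted p = 0.227) and Fah at -0.44 (SE 0.18, adjusted p = 0.202) in zone 2, and neither was called. Under quantile normalization both were called there, Hgd at -0.66 (limma adjusted p = 0.042) and Fah at -0.63 (0.0446). Kynu had -0.82, -0.89 and -0.46 in zones 1 to 3 and Tat had 0.49, 0.82 and 1.11, none of them past the threshold. The difference between zones 1 and 3 in the change from NP was itself tested and called for 0 of the 9 by limma at dpc8 (0% of all genes) and at dpc16 (0.054%), and 0 had an unadjusted p under 0.05 at either stage (2.36% and 3.16%). With the 21 libraries limma called 0 of the 9 again (0% and 0.0386%), and 0 had an unadjusted p under 0.05 (3.44% and 3.92%).

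**Figure D4:**
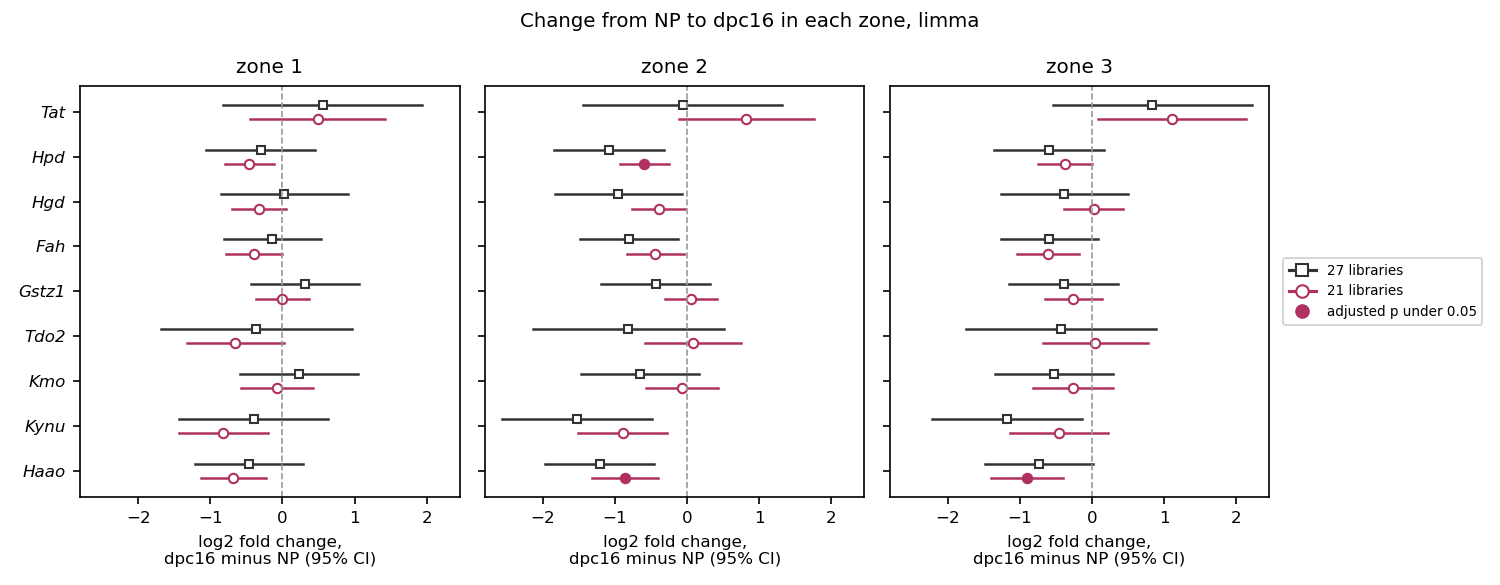
Log2 difference, dpc16 minus NP, of each of the 9 enzymes in zones 1, 2 and 3, with its 95% confidence interval from limma, for all 27 libraries (squares) and for the 21 without Y-linked FPKM (circles, filled at an adjusted p under 0.05). Haao lies to the left of 0 in all 6 fits and is filled in zones 2 and 3 (zone 3 lost with the replicate block, adjusted p = 0.0519), Hpd is filled in zone 2, and the Gstz1 intervals include 0 in all 6.

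From dpc8 to dpc16, Tat values were higher and Kynu and Haao values mostly lower. With 27 libraries limma called 0 of the 9 in zone 1 (2.01% of all genes called), zone 2 (1.51%) and zone 3 (1.37%), and 1 gene in each zone had an unadjusted p under 0.05 (13.4%, 12.1% and 12.4% of all genes). These were Tat in zone 1 (1.52, SE 0.67, limma adjusted p = 0.315), Haao in zone 2 (-0.90, SE 0.36, limma adjusted p = 0.287) and Kynu in zone 3 (-1.29, SE 0.50, limma adjusted p = 0.248), which stood at -0.78 (SE 0.29, limma adjusted p = 0.176) with the 21 libraries. Tat was higher at dpc16 in zone 1 with no overlap, as were 9.8% of all genes, and in zone 3 Fah, Gstz1, Kynu and Haao were lower with no overlap, as were 12.2% of all genes. Tat stood with 27 libraries at 0.87 in zone 2 (SE 0.67, limma adjusted p = 0.684) and at 1.30 in zone 3 (SE 0.67, limma adjusted p = 0.437). Without the 6 libraries Tat rose in zone 3 by 2.03 (SE 0.44, limma adjusted p = 0.0145), beside 3.87% of all genes called (1.98% higher). In zones 1 and 2 Tat stood at 1.54 (SE 0.44, limma adjusted p = 0.0608) and 1.36 (SE 0.48, limma adjusted p = 0.146). Haao fell in zone 2 by 0.93 on the log2 scale (SE 0.23, limma adjusted p = 0.0355), beside 3.91% of all genes (1.81% lower). In zone 1 limma called 0 of the 9, beside 4.38% of all genes, with 2 (16.6%) at an unadjusted p under 0.05.

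Stages were also compared on the mean of the 3 zones, with libraries of 1 stage and 1 experiment number kept as a block, a comparison chosen once the data were known. With all 27 libraries limma called 0 of the 9 for dpc16 against NP (6.8% of all genes called), dpc16 against dpc8 (6.18%) and dpc8 against NP (0.0309%), and 4, 2 and 0 passed at an unadjusted p under 0.05 (18.4%, 18.1% and 3.36%). With the 21 libraries, 4 genes fell from NP to dpc16, where 10.6% of all genes were called (4.85% lower): Haao by 0.78 on the log2 scale (SE 0.14, limma adjusted p = 0.00177), Kynu by 0.72 (SE 0.21, limma adjusted p = 0.0355), Hpd by 0.47 (SE 0.11, limma adjusted p = 0.00936) and Fah by 0.45 (SE 0.12, limma adjusted p = 0.0265). Gstz1 stood at -0.05 (95% confidence interval -0.29 to 0.18), Hgd at -0.21 (-0.46 to 0.04), Tdo2 at -0.23 (-0.69 to 0.24), Kmo at -0.14 (-0.50 to 0.22) and Tat at 0.76 (0.16 to 1.37, limma adjusted p = 0.108). From dpc8 to dpc16, beside 12% of all genes (6.23% higher and 5.77% lower), Tat rose by 1.60 (SE 0.28, limma adjusted p = 0.00138), while Haao fell by 0.56 on the log2 scale (SE 0.14, limma adjusted p = 0.0162) and Kynu by 0.68 (SE 0.21, limma adjusted p = 0.0438). From NP to dpc8, beside 0.178% of all genes, limma called 0 of the 9 and 3 had an unadjusted p under 0.05 (5.71% of all genes): Tat (-0.84), Hpd (-0.38) and Tdo2 (-0.63).

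Zones 1 and 3 were compared on the mean of the 3 stages in the same way, without the block. With 27 libraries limma called 0 of the 9 beside 5.59% of all genes, with 2 (15.4%) at an unadjusted p under 0.05, Hpd at -0.70 (SE 0.21, adjusted p = 0.0576) and Kynu at 0.69 (SE 0.29, adjusted p = 0.22). The block called Hpd with 27 libraries (limma adjusted p = 0.0198). With the 21 libraries, beside 8.18% of all genes (4.25% higher and 3.93% lower), Hpd was lower in zone 1 by the value of -0.80 (SE 0.0954, limma adjusted p = 2.56e-05) and Kynu was higher by 0.85 (SE 0.17, limma adjusted p = 0.00468). On this mean over 21 libraries, Hpd and Kynu, an enzyme of each pathway, differed between zones 1 and 3 in opposite directions. Kynu was not called between these zones at any single stage, and its NP mean over all libraries was higher in zone 2 (103.9 FPKM) than in zone 1 (79.9 FPKM). The other 7 genes lay between -0.29 (Gstz1, adjusted p = 0.106) and 0.27 (Kmo, adjusted p = 0.307), and limma called none of them.

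Ratios of 2 genes within a library do not depend on the scaling of that library, and are given here as a description chosen after the values were seen. The ratio of Tat to Hpd ran from 0.163 to 0.843 at NP (median 0.518, n = 9), from 0.151 to 0.626 at dpc8 (median 0.37) and from 0.413 to 1.63 at dpc16 (median 1.06). In each stage its mean declined from zone 1 to zone 3, for example from 1.35 ± 0.25 to 1.23 ± 0.50 and 0.73 ± 0.31 at dpc16 (SD, n = 3). Tat thus exceeded Hpd in 6 of the 9 dpc16 libraries and in 0 of the 18 libraries of NP and dpc8. The ratio of Haao to Gstz1 ran from 0.562 to 0.984 at NP (median 0.855), from 0.582 to 0.792 at dpc8 (median 0.657) and from 0.381 to 0.67 at dpc16 (median 0.466). The highest dpc16 values of this ratio, 0.67 in zone 1 and 0.666 in zone 3, lay inside the range of the other stages. The ratio of Hpd to Hgd ran from 3.22 to 4.56 in zone 3 (median 3.72, n = 9) and from 2.04 to 4.32 in zone 1 (median 2.78), and that of Kynu to Kmo from 0.34 to 1.03 at NP (median 0.624) and from 0.196 to 0.474 at dpc16 (median 0.37).

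**Figure D5:**
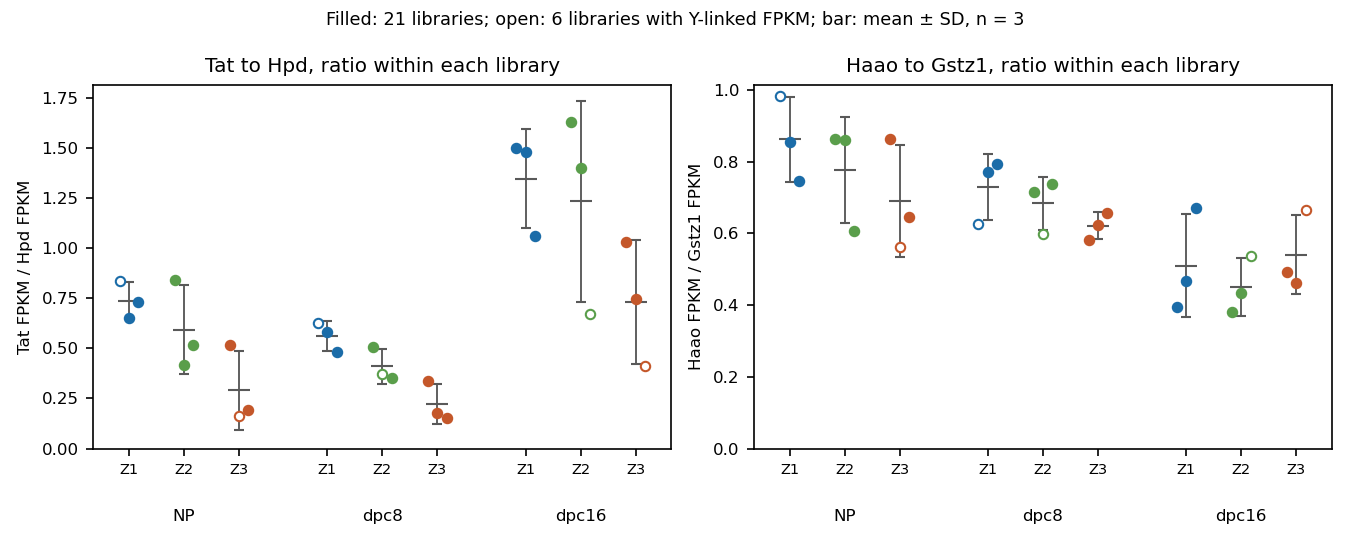
Ratio of FPKM within each library, Tat to Hpd (left) and Haao to Gstz1 (right), by stage and zone. Points are libraries, open where Y-linked genes were present, and bars give the mean ± SD (n = 3); Tat to Hpd is above 1 only at dpc16, and Haao to Gstz1 has its lowest median, 0.466, at dpc16.

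Across all 27 libraries the pairs without Tat had correlations of 0.384 to 0.947, while Tat reached 0.119 to 0.345 with 7 of the others and more only with Tdo2. Without the 6 libraries every pair was lower. Fah and Haao were most alike, with Pearson's r of 0.947 over 27 libraries on the log2 scale and 0.923 over 21. Hgd and Gstz1 went from 0.908 to 0.455, Tdo2 and Kmo from 0.716 to -0.07, and Tat and Haao from 0.119 to -0.53. Tat and Tdo2, which open the 2 pathways, had an r of 0.656 and 0.482. Among 5982 genes with a mean of at least 10 FPKM, those most like Tat were Errfi1 (0.896), Tedc2 (0.876) and Herpud1 (0.863), those most like Hpd were Glud1 (0.949), Mettl7b (0.931) and Aldh2 (0.926), and those most like Tdo2 were Ahcy (0.882), Apoe (0.88) and Apoc1 (0.872). Kynu was most like Acat3 (0.896), Mal2 (0.889) and Aass (0.884), Kmo was most like H2-K1 (0.918), and Gstz1 was most like Apoc4 (0.967). These correlations are over libraries that share stages, zones and connective tissue levels, and are descriptions.

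Other genes of the 2 pathways were taken from lists. Of 11 tested genes around phenylalanine and tyrosine (12 listed), limma with 27 libraries called 1 in any of the 20 comparisons, Got1, an aspartate aminotransferase that also acts on aromatic amino acids, higher in zone 1 than in zone 3 at dpc16 by 2.15 (SE 0.54, adjusted p = 0.045), where 1.55% of all genes were called. Got1 measured 165, 191 and 128 FPKM in zone 1 and 34.4, 53.7 and 23.6 FPKM in zone 3. Gchfr, the regulator of the cofactor enzyme GTP cyclohydrolase, fell from NP to dpc16 on the mean of the 3 zones by 0.90 on the log2 scale (SE 0.26, limma adjusted p = 0.0372), where 6.8% of all genes were called. The values over 21 libraries were 1.87 for Got1 (limma adjusted p = 0.0441) and -0.95 for Gchfr (limma adjusted p = 0.000111), beside 2.71% and 10.6% of all genes called.

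Of 18 tested genes around tryptophan, kynurenine and NAD (20 listed), limma with 27 libraries called Afmid alone in comparisons of single groups. Afmid encodes the formamidase between Tdo2 and Kmo. It fell from NP to dpc16 by 2.15 on the log2 scale in zone 2 (SE 0.37, limma adjusted p = 0.00157) and by 1.71 in zone 3 (SE 0.37, limma adjusted p = 0.0154), where 2.66% and 1.32% of all genes were called. In zone 2 it measured 82.6, 60.4 and 68.7 FPKM at NP, 62, 49.4 and 91 FPKM at dpc8, and 16.3, 13 and 16 FPKM at dpc16. The dpc16 values lay below all others, and the library with Y-linked FPKM was not the lowest of them. From dpc8 to dpc16 Afmid fell by 2.05 on the log2 scale in zone 2 (limma adjusted p = 0.00353) and by 1.83 in zone 3 (limma adjusted p = 0.0103), beside 1.51% and 1.37% of all genes called. With the 21 libraries it fell from NP to dpc16 in each zone, by 1.60 on the log2 scale in zone 1 (SE 0.38, limma adjusted p = 0.0288) and by 2.19 in zone 2 (SE 0.38, limma adjusted p = 0.00217), and zone 3 was called too (limma adjusted p = 0.00608). Of all genes, 2.92%, 4.45% and 3.61% were called in zones 1 to 3 in that fit. Nadsyn1, the NAD synthetase, was higher in zone 1 than in zone 3 on the mean of the 3 stages. The difference was 0.74 with 27 libraries (SE 0.19, limma adjusted p = 0.0178) and 0.84 with 21 (limma adjusted p = 0.0056), beside 5.59% and 8.18% of all genes called.

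Of the 6 transporters of amino acids tested, 3 were called by limma with 27 libraries in comparisons of single groups, and all 3 were called again with 21. By comparison, 1 of the 6 was called between zones 1 and 3 at each stage (1.34%, 1.61% and 1.55% of all genes) and between zones 2 and 3 at dpc16 (0.517%). Between stages, the count was 2 and 1 from NP to dpc16 in zones 2 and 3 (2.66% and 1.32%), and 1, 2 and 1 from dpc8 to dpc16 in zones 1 to 3 (2.01%, 1.51% and 1.37%). Slc16a10, a carrier of tyrosine, tryptophan and phenylalanine, was lower in zone 1 than in zone 3 at NP (-2.46, SE 0.33, limma adjusted p = 6.87e-05), dpc8 (-2.38, SE 0.33, limma adjusted p = 0.000124) and dpc16 (-1.59, SE 0.33, limma adjusted p = 0.00941). It measured 9.35, 20.3 and 16.4 FPKM in zone 1 and 96.2, 67.2 and 96.3 FPKM in zone 3 at NP. In zone 2 Slc16a10 fell from NP to dpc16 by 1.83 on the log2 scale (SE 0.33, limma adjusted p = 0.00301) and from dpc8 by 1.60 (SE 0.33, limma adjusted p = 0.0131). At dpc16 it was lower there than in zone 3 (-1.77, SE 0.33, limma adjusted p = 0.009). Slc38a4, a carrier of neutral amino acids, fell from NP to dpc16 by 2.05 on the log2 scale in zone 2 (SE 0.38, limma adjusted p = 0.00353) and by 2.29 in zone 3 (SE 0.38, limma adjusted p = 0.00136), and from dpc8 by 1.83 in zone 2 (limma adjusted p = 0.0135). Its fall from dpc8 in zone 3 was called too (limma adjusted p = 0.00233). Slc43a1 rose from dpc8 to dpc16 in zone 1 by 1.83 (SE 0.42, limma adjusted p = 0.0249). Of 11 hormone receptors and glucocorticoid-responsive genes tested, limma with 27 libraries called Ahr alone in comparisons of single groups. It was lower in zone 1 than in zone 3 at each stage, by the values of -2.34, -2.13 and -3.01, where 1.34%, 1.61% and 1.55% of all genes were called. Ahr was also lower in zone 1 than in zone 2 at NP (-1.53, beside 0.154% of all genes called) and in zone 2 than in zone 3 at dpc16 (-1.99, beside 0.517%). Ahr encodes a receptor that binds kynurenine. On the mean of the 3 zones, Fkbp5, a gene induced by glucocorticoids, rose from NP to dpc16 by 1.36 (SE 0.41, limma adjusted p = 0.0452), beside 6.8% of all genes called. Sgk1 rose from dpc8 to dpc16 by 1.44 (SE 0.43, limma adjusted p = 0.0467), beside 6.18%. Over 21 libraries these 2 values were 1.56 (limma adjusted p = 0.0143) and 2.16 (limma adjusted p = 0.000417), beside 10.6% and 12% of all genes called.

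Promoter windows of 300 bases, 250 before the start and 50 after it, were found in RefSeq (GRCm38.p6) for 8 of the 9 genes, with 2 windows for Gstz1 and thus 9 in all, and not for Kynu. They are placed by RefSeq starts, which differ from the annotated gene start for some genes. CCAAT was in 5 of 9 windows, those of Tat, Hgd, Gstz1 (both) and Tdo2, and in 37.4% of all 32851 windows of that length, with Tat holding 3 matches. TATAAA was in 2 of 9 windows, Hgd and Tdo2, and in 13.6% of all. The palindromic glucocorticoid response element, the HNF1 site, the HNF4 site CAAAGTCCA and the cyclic AMP response element TGACGTCA were in 0 of the 9 windows and in 0.00913%, 0.00913%, 0.475% and 1.79% of all. Both strands were searched, and a match is a match of letters only.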

How the data were processed

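RNA from laser-microdissected liver zones was made into ribosomal RNA-depleted, single-end libraries, 3 for each of 9 groups of stage and zone. The authors trimmed reads with cutadapt, aligned them to mm10 with HISAT2 2.1.0, and estimated FPKM of GENCODE protein-coding genes with Cuffdiff of Cufflinks 2.2.1, per the labels and the submitters' processing notes. The deposited FPKM are normalized for length and library size and hold no read counts, so depth per library is unknown, and the number of libraries limits the precision. Whether reads were counted by strand is not given in the sources used here.

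Genes at 1 FPKM or above in at least 3 of 27 libraries were kept (12952 of 21823), and log2(FPKM + 1) was fitted with limma 3.58.1 in R 4.3.3, with the 9 groups as means, moderated variances with a trend and robust settings, and Benjamini-Hochberg adjustment within each of 20 comparisons (threshold 0.05). Fold changes are on the log2(FPKM + 1) scale, which understates the change of low genes. Comparisons averaged over zones or stages were chosen once the data were known, those between stages with libraries of 1 stage and experiment number as a block (consensus correlation 0.193 with 27 libraries and 0.227 with 21). Libraries in which 4 Y-linked genes summed to 5 FPKM or more were left out in an alternative. Other alternatives changed the pseudocount, low-value filter, scaling, weights, covariate, block and libraries. The fitting steps were tested on simulated data.

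All 9 genes are named. Other pathway genes were named where called, at most 4 per comparison by size, and the 3 genes of highest correlation were named for likeness. The genes and lists were chosen with earlier results of these data known. Promoter windows came from RefSeq (GRCm38.p6), and positions from the mm10 annotation.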

Additional observations from a re-analysis of the deposited data

How the results depend on the processing

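With all 27 libraries, 0 of the 9 genes were called by limma in each of the 20 comparisons and in the 4 averaged ones. The settings in the following sentences called some, and the cause was not tested. Without the 6 libraries with Y-linked FPKM, the count was 1 for zone 1 against zone 3 at dpc8 and at dpc16, 2 for dpc16 against NP in zone 2 and 1 in zone 3, 1 for dpc16 against dpc8 in zones 2 and 3, and 4, 3 and 2 for averaged dpc16 against NP, dpc16 against dpc8 and zone 1 against zone 3. Without them and with the replicate block, 1 was called for zone 1 against zone 3 at each stage (2.29%, 4.55% and 3.7% of all genes), 1 for zone 2 against zone 3 at dpc16 (1.35%), 2 for dpc16 against NP in zone 2 (4.43%) and 1 for dpc16 against dpc8 in zones 2 and 3 (3.66% and 3.72%). Without them and with upper-quartile scaling, 1 was called for zone 1 against zone 3 at dpc8 and dpc16 (2.86% and 2.59%), 1 for dpc16 against NP in zone 2 (4.42%), 1 for dpc16 against dpc8 in zones 2 and 3 (3.87% and 3.85%), and 4, 4 and 2 in the averaged comparisons (10.4%, 12.1% and 8.32%). Without them and with quantile normalization, 1 was called for zone 1 against zone 3 at dpc8 and dpc16 (2.65% and 2.56%), 1, 4 and 2 for dpc16 against NP in zones 1 to 3 (2.83%, 4.38% and 3.26%), and 2 and 1 for dpc16 against dpc8 in zones 2 and 3 (3.91% and 3.58%). With all libraries, quantile normalization called 2 for dpc16 against NP in zone 2 (2.57%) and 4, 1 and 1 in the averaged comparisons (6.3%, 5.56% and 5.19%). Array weights called 1 for zone 1 against zone 3 at dpc8 (6.6% of all genes), 1 for dpc16 against NP in zone 2 (8.5%), and 1 and 2 for dpc16 against dpc8 in zones 1 and 3 (7.77% and 12.1%), where the background was itself several times that without weights. The connective tissue level as a covariate called 1 for zone 2 against zone 3 at dpc16 (0.911% of all genes), 5 and 1 for dpc16 against NP in zones 2 and 3 (6.61% and 4.25%), and 6 for dpc16 against dpc8 in zone 2 (6.43%), all of them lower in the group named first. A fit of only the groups compared called 1 for dpc16 against dpc8 in zone 1 (0.911%).

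The replicate block called 0 in each of the 20 comparisons and 1 for averaged zone 1 against zone 3 (7.87% of all genes), and without the block averaged dpc16 against NP gave 3 (11.8%) and dpc16 against dpc8 gave 2 (11.1%). The experiment numbers were not taken as a pairing in the 20 comparisons, while the averaged stage comparisons kept libraries of 1 stage and number as a block. The correlation of deviations between same-numbered libraries was over 0.1 in 4 of 9 pairs at NP, 5 of 9 at dpc8 and 9 of 9 at dpc16. Leaving out 1 library at a time gave 0 to 2 called for averaged dpc16 against NP, 0 to 1 for dpc16 against dpc8 and 0 to 1 for zone 1 against zone 3, and 0 in each of the 20. For dpc16 against NP, 2 were called without replicate 1 of NP zone 1 or replicate 3 of dpc16 zone 1, and 1 without replicate 1 of NP zone 2, replicate 2 of NP zone 3, replicate 1 of dpc16 zone 2 or replicate 2 of dpc16 zone 3. For dpc16 against dpc8, 1 was called without replicate 3 of dpc16 zone 2 or of dpc16 zone 3, and for zone 1 against zone 3, 1 without replicate 3 of dpc16 zone 3. Tat from NP to dpc16 in zone 1 turned its direction, to -0.032 under quantile normalization (limma adjusted p = 0.994). Between the fits with 27 and 21 libraries, 44 of the 180 values (9 genes in 20 comparisons) differed in sign, and 0 of the 44 were called in either fit. The largest of these with 27 libraries was Tdo2 from NP to dpc16 in zone 2, at -0.82 and then 0.08 with 21. In 1 of the 44 an unadjusted p was under 0.05, Tdo2 from dpc8 to dpc16 in zone 3, at -0.10 with 27 libraries and 0.70 with 21.

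Values of FPKM carry no depth, so the counting error of single values is unknown. With 3 libraries per group, and 2 where a library was left out, the intervals of single comparisons were wide, and a p above the threshold does not show that groups were alike.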

Other observations

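Fkbp5, a gene induced by glucocorticoids, shared with Tat its high values in replicate 1. It measured 59.9, 24.8 and 48.2 FPKM in NP zone 1, 79, 27.3 and 18.3 FPKM in NP zone 2, and 64.2, 17.4 and 40.5 FPKM in NP zone 3. At dpc8 the values were 81.8, 25 and 32.9 FPKM in zone 1, 97.9, 18.5 and 37.6 FPKM in zone 2, and 102, 23.2 and 37.5 FPKM in zone 3. Replicate 1 was the highest in all 6 of these groups for Fkbp5 and in 4 of them for Tat. At dpc16 Fkbp5 measured 117, 100 and 119 FPKM in zone 1, 123, 115 and 38.6 FPKM in zone 2, and 127, 128 and 59.9 FPKM in zone 3, where the low replicate 3 of zones 2 and 3 is a library with Y-linked FPKM. Fkbp5 was chosen here after its values were seen.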
